A study of Mus musculus with 30 samples.

Results

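GW3965 and T0901317 are synthetic agonists of the liver X receptors (LXR), and both were given to primary mouse macrophages at 1 uM, so their transcriptomes can be set against each other at a matched dose and time. The 6 libraries concerned, 3 with GW3965 and 3 with T0901317, were taken by treatment label from the 30 libraries of the series. The macrophages had been drawn into the peritoneum with thioglycollate and were kept in RPMI medium. Before treatment, all groups, the vehicle group included, spent 24 h in serum (10%) stripped of lipid, together with mevastatin at 10 uM, a statin that blocks cholesterol synthesis, and mevalonate at 50 uM, and they stayed in lipid-deficient medium for the 18 to 20 h with ligand. Groups used here are GW3965 at 1 uM (3 macrophage and 2 hepatocyte libraries), T0901317 at 1 uM (3 and 2 libraries), DMHCA at 1 uM, MePipHCA at 1 uM and desmosterol at 10 uM (3 macrophage and 2 hepatocyte libraries each) and vehicle, labelled DMSO / EtOH (3 and 2 libraries). The strain, genotype, sex and age of the mice are not given in the sources used here. Nothing states whether replicates came from separate animals or cultures, so p-values measure the spread between these libraries, which may be technical.

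LXR-alpha and LXR-beta are nuclear receptors that sense oxysterols and bind DNA together with the retinoid X receptor. In macrophages they switch on genes that move cholesterol out of the cell and, through Srebf1, genes that build fatty acids. T0901317 has also been described as a ligand of the pregnane X receptor (PXR), the farnesoid X receptor (FXR) and the retinoic acid receptor-related orphan receptors (ROR), so genes of those receptors were followed beside the LXR genes.

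Libraries held 4.7, 6.98 and 8.89 M exon counts with GW3965, against 4.02, 4.01 and 11.45 M with T0901317 and 10.55 to 15.69 M with vehicle, and 13622 to 14794 genes were detected with GW3965, against 13574 to 15160 with T0901317. Macrophage markers were high throughout, with a summed level of 15140 to 16100 counts scaled to the library total (CPM) over 10 listed genes with GW3965 and 14590 to 15280 CPM with T0901317. Alb, Ttr and Cyp2e1, markers of hepatocytes, had 0 counts in all 6 libraries. T0901317 replicate 2 stood apart from the rest: its 5 pairs with the other libraries had a Pearson correlation of log2 CPM across genes of 0.9774 to 0.9826, against 0.9823 to 0.992 for the other 10 pairs. Calls that rest on it, and some of the list genes named below, are given with and without it. Levels below are CPM per library on TMM-scaled libraries, and changes are log2 fold changes with their SE or 95% interval (n = 3 libraries a group). Adjusted p-values come from edgeR's quasi-likelihood test with Benjamini-Hochberg adjustment over 11544 genes. A gene is said to be called, or to have risen or fallen, where that value was under 0.05.

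Only Rn45s and Steap3 told the agonists apart, 2 of 11544 genes tested (0.0173%), with 1 gene higher (0.00866%) and 1 lower (0.00866%) with GW3965. Without any adjustment 718 genes had a p under 0.05, 6.22% of those tested. Steap3 encodes a ferric reductase of endosomes that takes part in iron uptake (NM_133186, chromosome 1, 120226416 to 120265280, minus strand, mm10). It stood at 144, 144 and 131 CPM with GW3965, against 162, 184 and 178 CPM with T0901317, and at 182, 194 and 206 CPM with vehicle. All 3 GW3965 libraries lay below all 3 T0901317 libraries, and the T0901317 and vehicle libraries overlapped. The log2 fold change of GW3965 over T0901317 was −0.33 ± 0.06, with a 95% interval of −0.46 to −0.21 and an adjusted p of 0.0184. Against vehicle Steap3 fell with GW3965 by 0.48 ± 0.06 on the log2 scale (adjusted p = 2.02e-08), while T0901317 gave −0.15 ± 0.06 (adjusted p = 0.0866). The Steap3 call was lost without GW3965 replicate 1, 2 or 3 (adjusted p of 0.0895, 0.0642 and 0.187) and without T0901317 replicate 2 or 3 (adjusted p of 0.218 and 0.178), with log2 fold changes of −0.36 to −0.29.

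Rn45s is the precursor of the ribosomal RNAs, transcribed from many near-identical copies, so the counts at its listed locus (NR_046233, chromosome 17, 39842997 to 39848829, plus strand, mm10) may pool several copies. It stood at 1360.4, 1014 and 809 CPM with GW3965, against 740.05, 564 and 728 CPM with T0901317, and at 528, 453 and 503 CPM with vehicle. The GW3965 libraries were all above the T0901317 libraries, and the highest GW3965 value was 1 library, replicate 1. The log2 fold change was 0.64 ± 0.11 (95% interval 0.42 to 0.86, adjusted p = 0.00703). Without GW3965 replicate 1 it was 0.42 (adjusted p = 0.401), and without T0901317 replicate 2 it was 0.53 (adjusted p = 0.218). DESeq2 did not call it (adjusted p = 0.845). Rn45s took 0.0811 to 0.134% of all counts with GW3965, against 0.0561 to 0.0742% with T0901317. The libraries were polyA-selected, so these shares may reflect how much ribosomal RNA the selection left in each library. Its part in the difference was not tested. Across the GW3965 libraries the Rn45s level fell as total counts rose (4.7, 6.98 and 8.89 M). The T0901317 libraries (4.02, 4.01 and 11.45 M) did not show that order. With every library thinned to 1 depth the difference was 0.62 (adjusted p = 0.000163). Thinning keeps the share of Rn45s in each library, so it cannot tell whether that share follows depth, which was not tested.

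Leaving out 1 library gave 0 calls without GW3965 replicate 1 or T0901317 replicate 2 (622 and 599 genes at an unadjusted p under 0.05), 1 call without GW3965 replicate 2 or T0901317 replicate 3, and 2 without either of the others. Summed markers of stellate cells and fibroblasts moved alongside, at 217.1 to 223 CPM over 8 listed genes with GW3965 and 258.5 to 338.3 CPM with T0901317, where replicate 2 was the highest and the others reached 266.3 CPM. Their part in these differences was not tested.

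**Figure D1:**
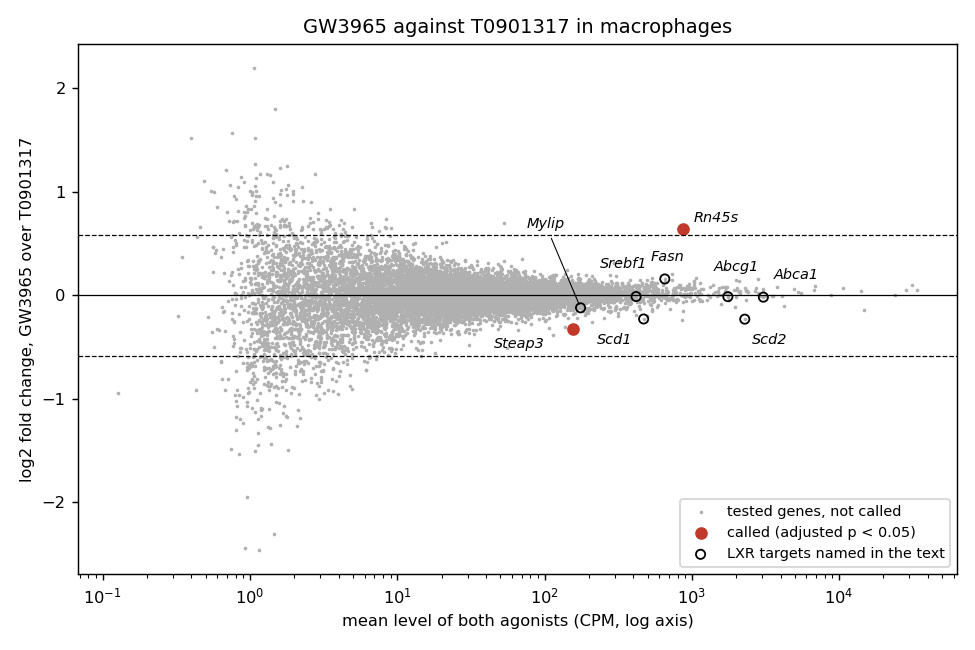
Each point is a gene tested in macrophages, with its mean level over both agonists in CPM (log axis) and the log2 fold change of GW3965 over T0901317, and dashed lines mark 1.5-fold. Rn45s (0.64) and Steap3 (−0.33) are the called genes, while Abca1, Abcg1 and Srebf1 lie within 0.02 of 0.

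Among the genes not called, the 5 with the smallest p on each side are given next. On the higher side with GW3965 was Eif4a1, a helicase of translation initiation, at 79.2, 80.9 and 78.4 CPM with GW3965, against 65.5, 53.6 and 66.3 CPM with T0901317 (log2 fold change 0.35, adjusted p = 0.225). It was called with no filter on low counts (adjusted p = 0.024) and with libraries thinned to 1 depth (adjusted p = 0.0288). Atp6v0a1, a subunit of the proton pump of acidic organelles, had 785, 787 and 765 CPM with GW3965, against 662, 704 and 669 CPM with T0901317 (log2 fold change 0.20, adjusted p = 0.225). It fell against vehicle with both agonists, by 0.21 ± 0.05 with GW3965 and by 0.41 ± 0.05 with T0901317, and DESeq2 called its difference between them (adjusted p = 0.0137). Crip1, a small LIM-domain protein, had 358, 379 and 327 CPM with GW3965, against 307, 266 and 277 CPM with T0901317 (log2 fold change 0.32, adjusted p = 0.225). It was called when the 6 libraries were fitted alone (adjusted p = 0.00683) and with no filter (adjusted p = 3.74e-05), and its adjusted p ran up to 1 over the alternatives, the value with DESeq2. Oit3 had 25.0, 24.4 and 21.4 CPM with GW3965, against 15.9, 16.5 and 16.9 CPM with T0901317 (log2 fold change 0.50, adjusted p = 0.343). Glul, which makes glutamine, had 181, 186 and 175 CPM with GW3965, against 157, 151 and 161 CPM with T0901317 (log2 fold change 0.20, adjusted p = 0.482). In each of these 5 genes all GW3965 libraries were above all T0901317 libraries. That held in one direction or the other for 1298 of the genes tested (11.2%).

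On the lower side with GW3965 were the desaturases Scd1 and Scd2, given with the lipid genes, and 3 genes of low level. Siah2, a ubiquitin ligase, had 12.1, 10.8 and 12.3 CPM with GW3965, against 15.9, 17.0 and 19.0 CPM with T0901317, and 12.3, 12.4 and 13.6 CPM with vehicle (log2 fold change −0.59, adjusted p = 0.225). Its GW3965 and vehicle libraries overlapped, and its T0901317 libraries lay above both. Hykk, a kinase of hydroxylysine, had 0.216, 0.291 and 0.449 CPM with GW3965, against 1.74, 2.26 and 1.91 CPM with T0901317 (log2 fold change −2.46, 95% interval −3.65 to −1.27, adjusted p = 0.225). E330033B04Rik, a non-coding transcript, had 0.432, 0.581 and 0.337 CPM with GW3965, against 2.73, 3.01 and 1.65 CPM with T0901317 (log2 fold change −2.31, 95% interval −3.46 to −1.15, adjusted p = 0.298). Both are among 6 genes whose 95% interval lay wholly beyond 1.5-fold, all 6 at a mean under 10 CPM and none of them called.

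The LXR targets of cholesterol efflux were at nearly the same level with either agonist. Abca1, the pump that loads cholesterol onto apolipoprotein A-I (NM_013454, chromosome 4, 53030789 to 53159895, minus strand), stood at 3076, 3043 and 2992 CPM with GW3965, against 3142, 2997 and 3099 CPM with T0901317, and at 139.9, 161 and 159 CPM with vehicle. The agonist libraries overlapped and all lay far above vehicle. Its rise over vehicle was 19.8-fold for GW3965 and 20.1-fold for T0901317, and the log2 fold change between agonists was −0.02 ± 0.05, with a 95% interval of −0.11 to 0.07 (adjusted p = 0.971). Abcg1, which exports cholesterol to high-density lipoprotein (NM_009593, chromosome 17, 31057694 to 31117981, plus strand), stood at 1755, 1783 and 1702 CPM with GW3965, against 1718, 1822 and 1754 CPM with T0901317, and at 229, 251 and 252 CPM with vehicle. Its agonist libraries overlapped too, with a difference of −0.01 (−0.11 to 0.08) on rises of 2.84 ± 0.05 with GW3965 and 2.86 ± 0.05 with T0901317. Mylip, a ubiquitin ligase that LXR switches on (NM_153789, chromosome 13, 45389742 to 45411940, plus strand), had 169, 163 and 173 CPM with GW3965, against 175, 187 and 186 CPM with T0901317, and 13.7, 14.1 and 14.5 CPM with vehicle. All GW3965 libraries were below all T0901317 libraries, by a log2 fold change of −0.12 (−0.24 to −0.01, adjusted p = 0.785).

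The 2 comparisons with vehicle share the vehicle libraries. GW3965 raised 755 genes (6.54%) and lowered 772 (6.69%), and T0901317 raised 726 (6.29%) and lowered 756 (6.55%). Of 18 listed LXR targets of efflux and lipid transport 15 were tested, and 10 rose with GW3965, against 10 up and 1 down with T0901317. None of the 15 was called between agonists, all 15 had a 95% interval within 1.5-fold, and their median log2 fold change was 0.03, beside −0.000498 over all genes tested. An unadjusted p under 0.05 was found for 4 of the 15 (Apoe, Lpl, Mylip and Nr1h3), beside 6.22% of all genes. Without T0901317 replicate 2 it was found for 1 of the 15. Pltp, which transfers phospholipids between lipoproteins, averaged 2282 ± 177 CPM with GW3965 and 2359 ± 132 CPM with T0901317 (SD, n = 3 each). Arl4c, a small GTPase, averaged 117 ± 5.18 CPM with GW3965 and 123 ± 6.23 CPM with T0901317, and Lpcat3, which remodels phospholipids, 149 ± 6.79 CPM with GW3965 and 147 ± 7.77 CPM with T0901317. The ends of the list were Apoe, the main apolipoprotein of macrophages, at −0.15 (−0.24 to −0.05), and Apoc2, the cofactor of lipoprotein lipase, at 0.24 (−0.11 to 0.58). Without T0901317 replicate 2, Apoe was at −0.09 (−0.19 to 0.004) and Apoc2 at 0.29 (−0.09 to 0.67). Nr1h3, which encodes LXR-alpha itself, averaged 73.8 ± 4.91 CPM with GW3965 and 66.3 ± 2.28 CPM with T0901317, and Nr1h2, which encodes LXR-beta, 104 ± 6.34 CPM with GW3965 and 108 ± 6.18 CPM with T0901317.

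Cd38 and Lbp, which are not lipid genes, were among the largest rises shared by both agonists, and their levels were close. Mir5114, another of these, lies within Scd2 and is given with it. Cd38, an ectoenzyme that consumes NAD, had 60.9, 63.1 and 54.2 CPM with GW3965, against 63.0, 57.6 and 53.1 CPM with T0901317, and 2.86, 3.37 and 2.53 CPM with vehicle. Its difference between agonists was 0.05 (−0.16 to 0.25). Lbp, which binds bacterial lipopolysaccharide, had 25.3, 24.8 and 30.4 CPM with GW3965, against 21.1, 30.6 and 25.9 CPM with T0901317, and 1.29, 1.56 and 1.86 CPM with vehicle. Its difference was 0.07 (−0.22 to 0.36). In both genes the agonist libraries overlapped, and the signs of these small differences turned in some alternatives.

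Abca1, Fasn and Srebf1 hold letters that match a known LXR repeat just before a start site, and these stretches are shown because LXR is known to bind such repeats. Binding was not measured in these data. The letters searched were GGTTANNNNNGGTCA on both strands, a form of the spaced repeat known from these promoters, in RefSeq windows from 250 bases before to 50 after each start (GRCm38.p6). The motif was found in 16 of 32851 windows (0.0487%). Since the letters were known from these promoters, their presence there is no result of the search. Capitals mark the match, which reads on the strand opposite to the gene, and each line gives the 250 bases before the start.
Abca1, chr4:53159896-53160145, minus strand: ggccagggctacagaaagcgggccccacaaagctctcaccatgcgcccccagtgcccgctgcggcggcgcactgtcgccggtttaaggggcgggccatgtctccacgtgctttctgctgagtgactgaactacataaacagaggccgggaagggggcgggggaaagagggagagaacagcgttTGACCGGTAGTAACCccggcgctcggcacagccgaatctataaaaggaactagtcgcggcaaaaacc
Fasn, chr11:120824548-120824797, minus strand: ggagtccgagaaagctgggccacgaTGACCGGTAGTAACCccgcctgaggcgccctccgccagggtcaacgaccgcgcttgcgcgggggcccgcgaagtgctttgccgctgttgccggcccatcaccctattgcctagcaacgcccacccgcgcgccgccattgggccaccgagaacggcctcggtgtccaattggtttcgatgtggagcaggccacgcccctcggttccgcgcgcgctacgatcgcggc
Srebf1, chr11:60210472-60210721, minus strand: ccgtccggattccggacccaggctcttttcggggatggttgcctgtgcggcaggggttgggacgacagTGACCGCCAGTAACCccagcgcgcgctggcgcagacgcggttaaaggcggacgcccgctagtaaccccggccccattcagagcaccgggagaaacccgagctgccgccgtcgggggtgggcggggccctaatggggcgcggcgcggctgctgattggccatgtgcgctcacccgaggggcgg
The match began 67 bases before the start in Abca1, 225 bases before it in Fasn and 182 bases before it in Srebf1, where 1 of 3 windows held it. The 15 letters are the same in Abca1 and Fasn. The single window of Mylip and the 4 windows of Steap3 held no match to these letters. Abcg1, Scd1 and Scd2 had no window and so were not searched. In Srebf1 the start site with the match lies inside the counted transcript (60199089 to 60220604), not at the start of that transcript.

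Genes of fatty acid synthesis showed small differences that ran both ways. Srebf1, the factor through which LXR drives lipid synthesis (NM_011480, chromosome 11, 60199089 to 60220604, minus strand), stood at 416, 425 and 406 CPM with GW3965, against 399, 451 and 411 CPM with T0901317, and at 62.2, 74.0 and 70.6 CPM with vehicle. The agonist libraries overlapped, with a difference of −0.01 (−0.13 to 0.10). Srebf1 overlaps Rai1 on the opposite strand, and no strand option of the counting is stated. Fasn, the fatty acid synthase (NM_007988, chromosome 11, 120805958 to 120824547, minus strand), stood at 691, 688 and 692 CPM with GW3965, against 611, 637 and 612 CPM with T0901317, and at 102, 124 and 113 CPM with vehicle. All GW3965 libraries were above all T0901317 libraries, by 0.16 (0.03 to 0.28, adjusted p = 0.734).

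Scd1 and Scd2 lay on the other side, though neither was called. Scd1, which puts a double bond into saturated fatty acids (NM_009127, chromosome 19, 44394450 to 44407709, minus strand), had 397, 437 and 465 CPM with GW3965, against 499, 484 and 541 CPM with T0901317, and 20.2, 23.5 and 22.6 CPM with vehicle. Its paralog Scd2 (NM_009128, chromosome 19, 44293676 to 44306862, plus strand) had 1979.7, 2119 and 2209 CPM with GW3965, against 2443, 2441 and 2528 CPM with T0901317, and 159, 164 and 154 CPM with vehicle. In both genes every GW3965 library was below every T0901317 library. The differences were −0.23 for Scd1 (−0.35 to −0.11, adjusted p = 0.298) and −0.23 for Scd2 (−0.34 to −0.12, adjusted p = 0.225), on rises over vehicle of 4.29 ± 0.07 with GW3965 and 4.52 ± 0.07 with T0901317 for Scd1. Scd2 was called when the 6 libraries were fitted alone (adjusted p = 0.0199), with no filter on low counts (adjusted p = 0.0059) and with libraries thinned to 1 depth (adjusted p = 0.0449). How reads that match both paralogs were assigned is not given in the sources used here. Scd2 also holds Mir5114, a 60-base entry on the same strand, so its reads cannot be told from those of Scd2. That entry had 13.8, 15.8 and 13.7 CPM with GW3965, against 26.03, 21.5 and 17.9 CPM with T0901317, with a difference of −0.55 (−0.91 to −0.20, adjusted p = 0.597).

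Of 17 listed genes of fatty acid synthesis under SREBP-1c 13 were tested, with 10 up over vehicle with GW3965 and 9 with T0901317. None was called between agonists, 3 had an unadjusted p under 0.05 (Fasn, Scd1 and Scd2), and the median was 0.02. The 95% interval lay within 1.5-fold for 11 of the 13. The others were Me1, malic enzyme, at 0.974 ± 0.164 CPM with GW3965 and 2.13 ± 1.43 CPM with T0901317 (−0.90, and −0.33 without T0901317 replicate 2), and the desaturase Fads2, at 19.0 ± 3.89 CPM with GW3965 and 16.6 ± 0.874 CPM with T0901317.

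**Figure D2:**
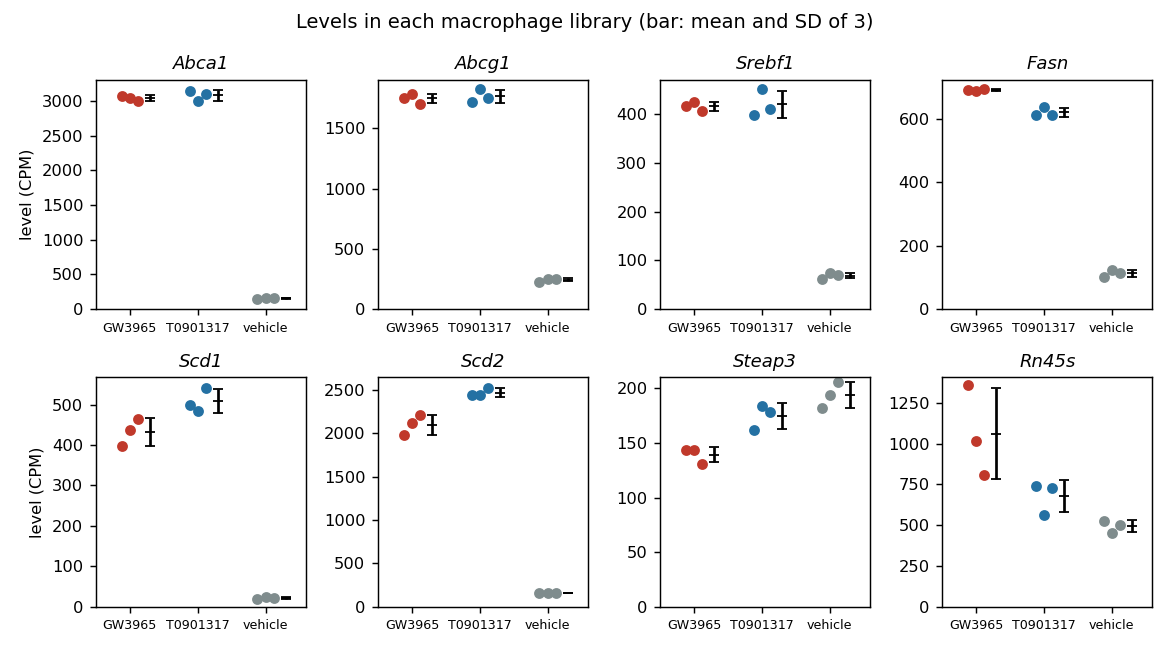
Levels in CPM of 8 genes in every macrophage library, by treatment, with the mean and SD of 3 libraries as a bar beside the points. Abca1, Abcg1, Srebf1 and Fasn are high with both agonists and low with vehicle, Scd1 and Scd2 are lower with GW3965 than with T0901317 in every library, and Steap3 and Rn45s are the called genes.

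Genes of the cholesterol pathway itself hardly moved between agonists. All 21 listed enzymes of cholesterol biosynthesis were tested, with 2 up and 4 down over vehicle with GW3965 and as many with T0901317. None was called between agonists, the median log2 fold change was −0.01, and the range ran from −0.21 for Hsd17b7 to 0.22 for Ebp, both enzymes of late steps. Without T0901317 replicate 2, Hsd17b7 was at −0.06 and Ebp at 0.19. The interval was within 1.5-fold for 20 of the 21 enzymes, Idi1, at 2.62 ± 0.356 CPM with GW3965 and 2.46 ± 0.875 CPM with T0901317, being the exception. Of 10 tested further targets of SREBP-2 none was called and 9 were within 1.5-fold. Among 10 tested genes of triglyceride synthesis and lipid droplets none was called, and Plin2, which coats lipid droplets, had the only unadjusted p under 0.05, at 2187 ± 144 CPM with GW3965 and 1988 ± 26.8 CPM with T0901317.

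How closely the agonists agreed was read from the 95% interval of each gene's difference, since a p that misses the threshold does not show that levels were alike. For 8578 of 11544 genes (74.3%) the interval lay within 1.5-fold either way, and for 10320 (89.4%) within 2-fold. The median size of the difference was 0.0899 on the log2 scale, 90% of genes were under 0.335, and the median interval reached 1.19-fold to either side of the estimate. Precision followed the level of a gene. Of 1805 genes at a mean of 100 CPM or more 99.8% were within 1.5-fold, of 6267 genes at 10 to 100 CPM 96.6%, and of 3317 genes at 1 to 10 CPM 21.7%. None of 155 genes under 1 CPM could be bounded within 2-fold. Without T0901317 replicate 2, 8311 of 11704 genes tested were within 1.5-fold.

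**Figure D3:**
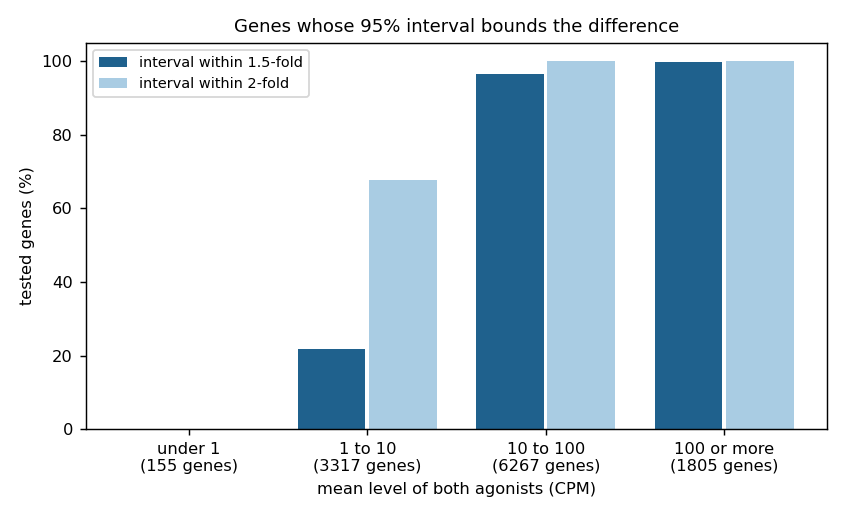
Bars give the share of tested genes, in percent, whose 95% interval of the GW3965 to T0901317 difference lies within 1.5-fold (dark) or 2-fold (light), by mean level in CPM. The share within 1.5-fold is 99.8% at 100 CPM or more and 21.7% at 1 to 10 CPM.

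Libraries were also compared in pairs. The genes used were those at a mean of 10 CPM or more over the 6 libraries of the agonists. Vehicle did not enter that mean, so a gene could pass through its level with agonist, which bears on the pairs with vehicle. Over these genes, the SD of the log2 difference in a pair of libraries had a median of 0.201 for GW3965 with T0901317 (0.15 to 0.255, 9 pairs). Pairs within GW3965 had a median of 0.19 (0.171 to 0.2, 3 pairs) and pairs within T0901317 0.229 (0.18 to 0.245, 3 pairs), so pairs across agonists overlapped pairs of replicates. Pairs of GW3965 with vehicle had 0.312 (0.294 to 0.329) and pairs of T0901317 with vehicle 0.317 (0.3 to 0.349), above every pair within or between the agonists. That separation did not hold over all 11544 genes, where the same SD was 0.279 to 0.474 for GW3965 with T0901317, 0.315 to 0.368 within GW3965, 0.356 to 0.473 within T0901317, 0.365 to 0.448 for GW3965 with vehicle and 0.373 to 0.495 for T0901317 with vehicle. The pairs with T0901317 replicate 2 were the widest, at 0.229 to 0.255 among the 6 libraries. Pairs of libraries share members and genes are not independent replicates, so no test is attached.

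**Figure D4:**
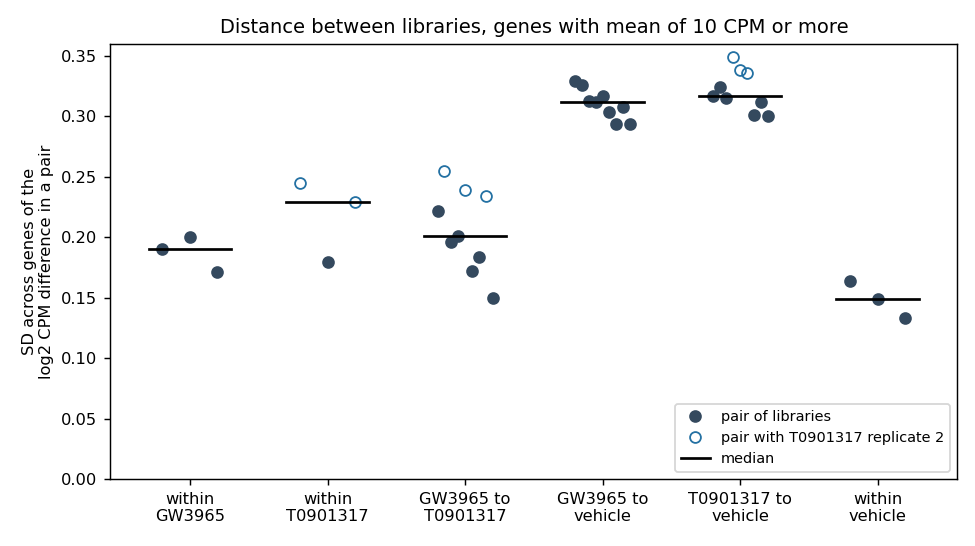
Each point is a pair of macrophage libraries, placed by the SD of the log2 CPM difference across genes at a mean of 10 CPM or more over the agonist libraries, vehicle not included. A line marks the median of each kind of pair, and open points are pairs with T0901317 replicate 2. Pairs of the 2 agonists (median 0.201) lie among pairs of replicates of 1 agonist and below pairs with vehicle (0.312 and 0.317).

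Genes that another LXR ligand moves were set apart next. DMHCA, a further LXR ligand, also at 1 uM, changed 1350 genes against vehicle, and 0 of these were called between GW3965 and T0901317 with edgeR. At an unadjusted p under 0.05 there were 122 of them (9.04%), beside 6.22% of all genes. The interval lay within 1.5-fold for 1176 (87.1%), beside 74.3% of all genes. These genes were also measured more precisely, with a median interval of 1.12-fold to either side, beside 1.19-fold over all genes. The 2 shares therefore do not compare agreement alone. For the 669 genes that rose with DMHCA the share within 1.5-fold was 95.2%, and for the 681 that fell 79.1%. Of 66 genes that DMHCA raised by over 2-fold, 48 (72.7%) were within 1.5-fold and 13 (19.7%) had an unadjusted p under 0.05. Of 92 genes that DMHCA lowered by over 2-fold, 29 (31.5%) were within 1.5-fold and 9 (9.78%) had an unadjusted p under 0.05. Against vehicle the 66 raised genes had a median of 1.77 with GW3965, 1.75 with T0901317 and 1.46 with DMHCA. The 92 lowered genes had −0.346 with GW3965 and −0.213 with T0901317, beside −1.36 with DMHCA, so neither agonist lowered them as DMHCA did. Both sets were picked on the DMHCA change, and all these medians share the vehicle libraries. The fit takes its spread from the GW3965 and T0901317 libraries too, so the DMHCA calls and these intervals are not independent. With DMHCA and vehicle libraries fitted alone, 1585 of the tested genes were called, 86.6% of them within 1.5-fold and 9.21% at an unadjusted p under 0.05, and 1 of them was called between the agonists.

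Of the receptors for which T0901317 has been described as a ligand, PXR and FXR left little to compare in these cells, and ROR more. Of 19 listed targets of PXR and the constitutive androstane receptor (CAR) only 7 had enough counts to be tested. Cyp3a11, the classical PXR target, had 0 counts in all libraries but T0901317 replicate 3, which had 1, and Nr1i2, which encodes PXR, had 0 in all 6. Of the 7 tested none was called between agonists and 6 were within 1.5-fold. Abcc3, an efflux pump for conjugates, had 314, 323 and 299 CPM with GW3965, against 335, 366 and 328 CPM with T0901317, and 90.2, 103 and 100.2 CPM with vehicle, so all GW3965 libraries were below all T0901317 libraries (−0.13, −0.25 to −0.02, adjusted p = 0.756). Without T0901317 replicate 2 the difference was −0.09 (−0.21 to 0.03). Abcc3 was the only 1 of the 7 to rise over vehicle with both agonists, while 2 of the 7 fell with GW3965 and 3 with T0901317. Of 11 FXR genes only Abcb4, a phospholipid flippase, could be tested, at 5.56 ± 1.31 CPM with GW3965 and 5.77 ± 1.44 CPM with T0901317. Of 16 tested ROR and clock genes none was called, 13 were within 1.5-fold and the median was 0.03. Rora averaged 45.3 ± 2.59 CPM with GW3965 and 42.5 ± 5.56 CPM with T0901317, and Cry1, a clock repressor, had the smallest p of the list, at 16.0, 16.9 and 19.1 CPM with GW3965, against 12.4, 15.8 and 13.7 CPM with T0901317 (0.33, 0.05 to 0.61).

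Inflammatory and stress genes were measured less precisely, as most are low in these cells. Of 17 tested inflammatory genes none was called and 10 were within 1.5-fold, with a median of 0.14. Nfkbia, the inhibitor of NF-kappaB, had the only unadjusted p under 0.05, at 52.2, 56.7 and 67.4 CPM with GW3965, against 45.4, 49.4 and 47.6 CPM with T0901317, and 58.5, 57.5 and 64.2 CPM with vehicle (0.33, 0.14 to 0.51, adjusted p = 0.5). Its GW3965 libraries overlapped vehicle and its T0901317 libraries lay below both. Il1a, an inflammatory cytokine, averaged 80.4 ± 8.72 CPM with GW3965 and 77.7 ± 5.78 CPM with T0901317, and Tnf 6.34 ± 2.28 CPM with GW3965 and 4.48 ± 0.727 CPM with T0901317. Among 16 interferon genes none was called, 8 were within 1.5-fold and the median was 0.11, and Ifit1, at 3.78 ± 1.04 CPM with GW3965 and 2.05 ± 0.992 CPM with T0901317, had the only unadjusted p under 0.05. Of 5 genes of alternative activation none was called and 1 was within 1.5-fold, the mannose receptor Mrc1, at 213 ± 6.02 CPM with GW3965 and 194 ± 13.9 CPM with T0901317.

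Of 15 genes of the endoplasmic reticulum and amino acid stress responses none was called, 11 were within 1.5-fold and the median was −0.003. An unadjusted p under 0.05 was found for 3 of them, and the ends of the list were Asns at −0.46 and Chac1 at 0.99. Without T0901317 replicate 2, 10 of 16 tested were below 0, among them Asns at −0.55 (−1.05 to −0.04) and Xbp1 at −0.17 (−0.34 to −0.005). Trib3 was then at 0.56 and Slc7a11 at 0.36, so the members differed in direction. Slc7a11, the cystine importer, had 23.3, 21.1 and 20.3 CPM with GW3965, against 17.9, 12.03 and 16.1 CPM with T0901317, and 32.8, 36.9 and 33.3 CPM with vehicle. It fell against vehicle with both agonists, by 0.69 ± 0.11 with GW3965 and by 1.15 ± 0.11 with T0901317, and the difference between them was 0.46 (0.20 to 0.72, adjusted p = 0.5). Trib3, a pseudokinase of the stress response, had 5.18, 3.92 and 6.17 CPM with GW3965, against 2.73, 2.26 and 3.82 CPM with T0901317 (0.68, adjusted p = 0.721), and Hspa5, the chief chaperone of the endoplasmic reticulum, averaged 939 ± 47.7 CPM with GW3965 and 941 ± 57.4 CPM with T0901317. Of 12 genes of PPAR and fatty acid oxidation none was called and 10 were within 1.5-fold, with a median of 0.08. Angptl4, an inhibitor of lipoprotein lipase, had 7.56, 13.7 and 9.87 CPM with GW3965, against 8.43, 4.76 and 6.08 CPM with T0901317 (0.73, 0.31 to 1.16, adjusted p = 0.5), and its libraries overlapped. Of 8 NRF2 and AhR targets none was called and 6 were within 1.5-fold, with a median of 0.01. Of 11 cell cycle genes none was called and 3 were within 1.5-fold, and Plk1, a mitotic kinase, had 1.08, 1.02 and 0.673 CPM with GW3965, against 1.49, 4.51 and 2.09 CPM with T0901317 (−1.50, adjusted p = 0.597), T0901317 replicate 2 being the highest library, and without it the difference was −1.09 (−2.10 to −0.07).

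**Figure D5:**
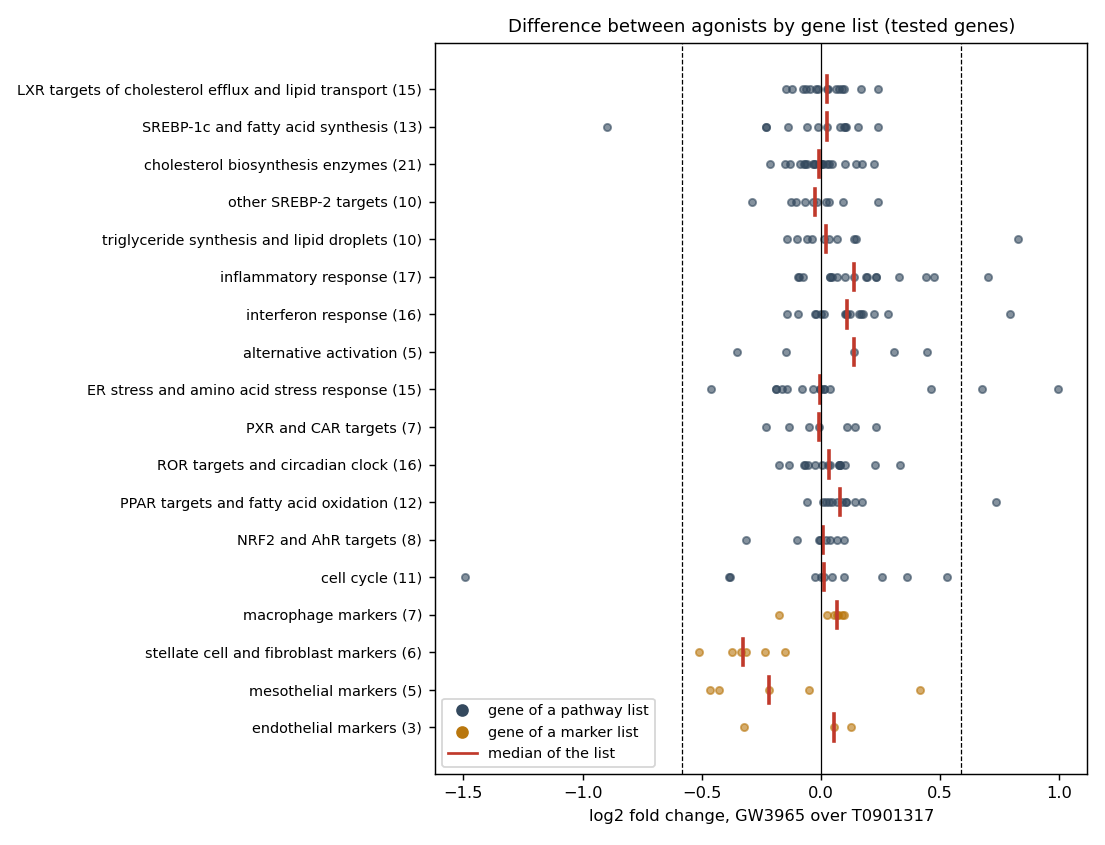
Each point is a tested gene of a list, placed by its log2 fold change of GW3965 over T0901317, with the list's median as a red bar, the number of tested genes in brackets and dashed lines at 1.5-fold. Medians of pathway lists lie between −0.03 and 0.14, and the 6 stellate cell and fibroblast markers lie below 0 with a median of −0.33.

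Markers of other cells differed widely in level, and those of stellate cells and fibroblasts were on the lower side with GW3965. In such bulk samples fewer cells of a type and less RNA per cell cannot be told apart. All 6 tested markers of that list were below 0, none was called, 4 had an unadjusted p under 0.05, and the median was −0.33. Without T0901317 replicate 2, 5 of the 6 were below 0, 2 had an unadjusted p under 0.05 and the median was −0.21. Col1a1, a collagen chain, had 53.5, 38.7 and 45.2 CPM with GW3965, against 64.0, 77.2 and 56.7 CPM with T0901317, and 55.5, 64.0 and 49.7 CPM with vehicle. All GW3965 libraries were below all T0901317 libraries, with T0901317 replicate 2 highest, and the difference was −0.51 (−0.78 to −0.25, adjusted p = 0.355). Without that library it was −0.40 (−0.68 to −0.11). Mesothelial markers summed to 16.19 to 22.44 CPM over 5 genes with GW3965, against 21.3 to 27.02 CPM with T0901317, with a median of −0.22 and none called. All 7 tested macrophage markers were within 1.5-fold, with a median of 0.07. Of the neutrophil markers only S100a8 was tested, at 7.56, 9.74 and 7.18 CPM with GW3965, against 6.94, 4.01 and 4.60 CPM with T0901317 (0.70, adjusted p = 0.627), while S100a9 and Mpo had 0 counts in all 6 libraries. Hepatocyte markers summed to 751.1 to 810.6 CPM with GW3965, against 783.2 to 845.2 CPM with T0901317, nearly all of it Trf, the iron carrier transferrin, at 785 ± 30.8 CPM with GW3965 and 806 ± 34.2 CPM with T0901317, while Alb, Ttr and Cyp2e1 had 0 counts. Endothelial markers summed to 135.5 to 143.3 CPM over 6 genes with GW3965, against 119.7 to 153.1 CPM with T0901317, and eosinophil markers to at most 9.93 CPM with GW3965 and 9.67 CPM with T0901317. Of the dendritic cell markers only Itgax was tested, which resident and elicited macrophages also express, at 521 ± 15.8 CPM with GW3965 and 472 ± 3.2 CPM with T0901317. Summed B cell markers were at most 3.05 CPM with GW3965 and 2.51 CPM with T0901317, T and NK cell markers at most 2.81 CPM with GW3965 and 3.47 CPM with T0901317, and mast cell markers at most 1.51 CPM with GW3965 and 0.992 CPM with T0901317.

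The same pair of agonists at the same dose was also given to primary hepatocytes, with 2 libraries each. There 0 of 13176 genes (0%) were called with edgeR, the smallest adjusted p was 0.612, 667 genes had an unadjusted p under 0.05 (5.06%), and DESeq2 called 0 as well. The interval lay within 1.5-fold for 7811 genes (59.3%), on 2 libraries a group and a coefficient of variation of 0.106, against 0.0554 in macrophages. Abca1 had 809 and 846 CPM with GW3965, against 856 and 996 CPM with T0901317, and 190.0 and 158 CPM with vehicle. The difference was −0.16 (−0.34 to 0.02). Scd2 had 32.8 and 34.3 CPM with GW3965, against 37.8 and 50.4 CPM with T0901317 (−0.39, −0.76 to −0.02, adjusted p = 0.967), so here too its GW3965 libraries lay below its T0901317 libraries. Scd1 gave −0.12 (−0.27 to 0.03) and Fasn 0.02 (−0.14 to 0.18). Steap3 had 82.9 and 81.4 CPM with GW3965, against 92.6 and 89.4 CPM with T0901317 (−0.15, −0.39 to 0.09). Rn45s had 1316 and 1348 CPM with GW3965, against 1728 and 1764 CPM with T0901317, the other way round from macrophages (−0.39, −0.61 to −0.17, adjusted p = 0.925).

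In hepatocytes 18 of the 19 listed PXR and CAR targets were tested, and none was called between the agonists. The median difference was −0.08, beside −0.00235 over all genes tested, with 11 genes below 0 and 7 above, 14 within 1.5-fold, and 5 at an unadjusted p under 0.05, 4 of them lower and 1 higher with GW3965. Over vehicle 1 rose with GW3965, against 2 up and 1 down with T0901317. Cyp3a11 had 82.3 and 97.4 CPM with GW3965, against 109.6 and 103.1 CPM with T0901317, and 114 and 122 CPM with vehicle (−0.24, −0.46 to −0.03, adjusted p = 0.94). Gsta1, a glutathione transferase, had 26.6 and 28.2 CPM with GW3965, against 41.8 and 31.4 CPM with T0901317 (−0.42, adjusted p = 0.925). It was called over vehicle with T0901317 (adjusted p = 0.0317) and not with GW3965 (adjusted p = 0.678). Gstm3, of the same family, had 11.5 and 10.5 CPM with GW3965, against 26.9 and 14.9 CPM with T0901317 (−0.93, −1.60 to −0.27), and Por, the electron donor of the cytochromes P450, had 532 and 553 CPM with GW3965, against 631 and 625 CPM with T0901317 (−0.21). The other way round, Aldh1a1, a retinal dehydrogenase, had 936 and 868 CPM with GW3965, against 751 and 792 CPM with T0901317, and 1042 and 968 CPM with vehicle (0.22, 0.06 to 0.39). Aldh1a1 fell against vehicle with T0901317 (−0.38, adjusted p = 0.0108) and was not called with GW3965 (adjusted p = 0.606). Cyp2b10, the classical CAR target, had 103 and 92.8 CPM with GW3965, against 109 and 108 CPM with T0901317 (−0.15, −0.41 to 0.12).

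Whether the difference between agonists differed between the cell types was tested as an interaction over all 30 libraries, with cell type confounded with medium and with the dates in the titles. Of 13700 genes 30 were called (0.219%), 3 with a positive and 27 with a negative interaction. Of these, 25 had a mean level over 10-fold higher in macrophage than in hepatocyte libraries, 1 was also called in macrophages (Rn45s, at 0.99 ± 0.19, adjusted p = 0.00968) and 0 in hepatocytes. With DESeq2 the Rn45s interaction was not called (1.02, adjusted p = 0.0665). Steap3, Scd1 and Scd2 were not among the 30. A single pair of compounds was compared, in 2 cell types, and each comparison was adjusted over its own genes.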

How the data were processed

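PolyA-selected RNA of macrophages and hepatocytes was sequenced from libraries with a dUTP-marked second strand, size selected at 223 to 375 bp, per the labels. Alignment used STAR and counting HOMER, on the build mm10, per the submitters' processing notes; versions are not given in the sources used here. The deposited tables hold raw exon counts per gene, per the file headers, with a column for each replicate and no strand option stated. Deposited RPKM tables were not used here.

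The test was the quasi-likelihood one of edgeR 4.0.16 (R 4.3.3). Genes passing filterByExpr (11544 of 24063 in macrophages, 13176 of 24453 in hepatocytes) were fitted with TMM factors and 1 mean per group over the 6 groups of a cell type (12 and 6 residual degrees of freedom), and GW3965 was set against T0901317. The interaction joined both tables by symbol (23703 shared). SE is the log2 fold change over the root of F, and intervals are at 95%. Scripts were tested on simulated data. Totals of 4.01 to 11.45 M counts in the 6 libraries limit genes under 10 CPM. Genes named are Abca1, Abcg1, Mylip, Srebf1, Scd1 and Fasn, every called gene, the 5 on each side with the smallest p, and the largest rises with both agonists. Other list members are named as the ends of a list, those with an unadjusted p under 0.05, or as examples chosen after their values were seen. Members and lists were chosen with earlier results of these data known. Adgre1 and Ly6g are not analysed here in macrophages, and Siglecf was read under the symbol Siglec5. Alternatives were a fit of the 6 libraries, DESeq2 1.42.0 and its size factors, no filter, thinning to 1 depth, a replicate block and leaving out each library. Same-numbered libraries did not deviate together (r of −0.022, 0.03 and 0.049), so the numbers were not taken as pairs.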

Additional observations from a re-analysis of the deposited data

Results flagged for a closer look

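Rn45s, Cd74, Iqck and Csf1r were singled out because the difference between GW3965 and T0901317 differed between macrophages and hepatocytes in the interaction test, Rn45s as the gene also called in macrophages and the other 3 as those with the smallest p. The interaction was 0.995 for Rn45s (adjusted p = 0.00968), with macrophages on the higher side with GW3965 and hepatocytes on the lower side, and DESeq2 did not call it (adjusted p = 0.0665). It was −2.67 for Cd74, the invariant chain of antigen presentation (adjusted p = 5.21e-06), −2.66 for Iqck (adjusted p = 0.000417) and −1.57 for Csf1r, the receptor of the macrophage growth factor (adjusted p = 0.00115), each by edgeR's quasi-likelihood test with Benjamini-Hochberg adjustment.

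In these last 3 genes the macrophage libraries of the agonists overlapped and the hepatocyte libraries were apart. In hepatocytes Csf1r had 8.3 and 6.28 CPM with GW3965, against 3.23 and 1.19 CPM with T0901317 and 2.96 and 2.27 CPM with vehicle. Cd74 had 6.28 and 3.9 CPM with GW3965, against 0.703 and 0.821 CPM with T0901317 and 0.155 and 0 CPM with vehicle. Iqck, on the scale of the joint fit, had 2.03 and 1.83 CPM in GW3965 hepatocytes, against 0.295 and 0.302 CPM in T0901317 hepatocytes. The 11 macrophage markers summed to 433.2 and 387.5 CPM in GW3965 hepatocytes, against 455.8 and 389.3 CPM in T0901317 hepatocytes. Csf1r is 1 of these 11 and a small part of that sum, so the sum does not show its difference. Of the 30 called genes, 27 had a negative interaction and 3 a positive one. Among the 27, on the scale of the joint fit, Ptprc had 1.43 and 0.769 CPM in GW3965 hepatocytes, against 0 and 0 CPM in T0901317 hepatocytes. C1qc had 5.19 and 3.37 CPM, against 1.48 and 1.89 CPM. The part of macrophage content in the interaction was not tested.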

How the results depend on the processing

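In place of 2 genes called in macrophages there were 8 with a fit of the 6 libraries alone, 15 with no filter on low counts, 4 with libraries thinned to 1 depth, 2 with DESeq2 (Atp6v0a1 and Steap3) and 1 with Rn45s removed from the table, an alternative chosen after seeing the data, as were the set of genes changed by DMHCA and the list genes given without T0901317 replicate 2. Leaving out 1 library gave 0 to 2. The replicate block gave 2, the same Rn45s and Steap3, with 8603 genes within 1.5-fold, and it changed no other call. Under all alternatives run that give an interval, 7542 to 8715 genes were within 1.5-fold. These counts are of unlike totals, so the range is not one of shares. The lowest was 7542 of 11644 genes tested, without T0901317 replicate 3. The highest was 8715 of 18470, with no filter, beside 8578 of 11544 in the main fit. In hepatocytes the count was 9 with no filter and 0 otherwise, also with a lone library assumed to vary like the other groups. The interaction gave 78 calls with no filter, 30 with DESeq2's size factors and 26 with DESeq2, Rn45s not among them. Of 20 named genes over 13 alternatives, 231 of 256 values kept direction and call, 8 lost a call, 8 gained one and 9 turned sign, all 9 in Abcg1, Srebf1, Cd38 and Lbp, with differences near 0. Lbp was −0.11 with thinned libraries. Leaving out 1 library gave −0.0458 to 0.169 for Lbp, −0.028 to 0.117 for Cd38, −0.032 to 0.00862 for Abcg1 and −0.0465 to 0.0367 for Srebf1. The cause of these changes was not tested. Depth limits genes under 10 CPM, most of which could not be bounded within 1.5-fold.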

Other observations

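Rn45s was also measured in the macrophage groups outside the comparison. Its level was 394, 421 and 406 CPM with DMHCA, 457, 316 and 376 CPM with MePipHCA and 477, 513 and 411 CPM with desmosterol, so the libraries of these 3 groups overlapped, and every GW3965 and T0901317 library lay above all of them. What part the polyA selection of each library had in these levels was not tested.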
